A study of Mus musculus with 3 samples.

Results

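The Notch receptors, ligands and targets described here are 10 genes of the pathway: the ligands Dll1, Jag1 and Jag2, the receptors Notch1 and Notch2, the receptor-modifying enzyme gene Lfng, and the target genes Hes1, Hes5, Hey1 and Heyl. They were taken from 14433 named genes with a log2 ratio on all 3 arrays, as array features whose platform annotation gave exactly 1 symbol equal to a listed name. Each gene had 1 feature, and all 10 features had a value on all 3 arrays, so no member was lost and no averaging was needed. The members were chosen with their log2 ratios on these same arrays already known. Their ratios are therefore given as a description, with no test.

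The study compared kidney rudiments, called metanephroi, at 11.5 dpc (days post coitum) with fetal kidneys at 13.5 dpc in CD1 mice, both normal tissue, microdissected and pooled over both sexes, per the labels. Amplified RNA of both ages was hybridised together on each of 3 two-colour Compugen oligonucleotide arrays, with 11.5 dpc in channel 1 and 13.5 dpc in channel 2. The labels give the dyes as red/green for arrays 1 and 2, and as green/red for array 3. A negative log2 ratio is read as lower at 11.5 than at 13.5 dpc. This direction is likely, because the labels put the younger age first in channel and name, but it is not settled, and every direction below turns if it is wrong.

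Notch signalling passes between touching cells. A ligand of the Delta or Jagged type on 1 cell binds a Notch receptor on its neighbour, the receptor is cut, and its freed intracellular part joins the DNA-binding protein RBPJ to switch on target genes, many of them transcriptional repressors of the Hes and Hey families. In the developing kidney the pathway is known for patterning the renal vesicle, comma-shaped body and S-shaped body, and Notch2 in particular is needed there for podocytes and proximal tubule. Lfng adds sugar to Notch receptors and so alters which ligand they respond to.

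The promoter stretches of Hes5, Lfng and Dll1 are shown because Hes5 is a direct Notch target, Lfng can be one, and Dll1 had the lowest ratio of the 10 genes. They are the 250 bases before a transcription start in RefSeq (build GRCm38.p6), written 5′ to 3′ on the gene's strand. Capitals mark TGGGAA, the core letters bound by RBPJ, or the same letters read on the other strand, TTCCCA. The Hes5 stretch lies at chr4:154960673-154960922 on the plus strand, the Lfng stretch at chr5:140607091-140607340 on the plus strand, and the Dll1 stretch at chr17:15376933-15377182 on the minus strand.
Hes5: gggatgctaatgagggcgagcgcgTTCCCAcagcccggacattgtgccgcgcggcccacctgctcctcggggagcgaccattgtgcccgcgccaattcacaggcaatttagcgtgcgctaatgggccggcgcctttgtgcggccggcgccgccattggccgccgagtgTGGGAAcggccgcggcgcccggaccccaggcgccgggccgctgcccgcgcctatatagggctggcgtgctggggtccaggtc
Lfng: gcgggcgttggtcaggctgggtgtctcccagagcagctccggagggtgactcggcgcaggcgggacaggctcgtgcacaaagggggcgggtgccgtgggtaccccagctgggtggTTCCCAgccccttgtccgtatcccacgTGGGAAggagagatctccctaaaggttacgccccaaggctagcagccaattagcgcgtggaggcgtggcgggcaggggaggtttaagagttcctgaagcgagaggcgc
Dll1: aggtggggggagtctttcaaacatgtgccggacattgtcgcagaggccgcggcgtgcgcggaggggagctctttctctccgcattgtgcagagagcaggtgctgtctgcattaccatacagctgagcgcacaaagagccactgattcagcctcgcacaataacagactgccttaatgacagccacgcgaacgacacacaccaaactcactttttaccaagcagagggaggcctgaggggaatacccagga

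Of the 10 genes, 7 had a promoter entry, with Dll1 represented by 2 windows; Hes1, Hey1 and Heyl had none. In windows of 300 bases, from 250 before to 50 after the start, TGGGAA on either strand occurred in 2 of these 7 genes. Hes5 held it 226 and 82 bases before the start, in opposite orientations, and Lfng 135 and 108 bases before it. Counted by window, the letters TGGGAA occurred in 2 of 8 for these genes, against 25.6% of all 32851 promoter windows of this length. The longer GTGGGAA, which contains TGGGAA, was read at both places in Hes5 and at the place nearer the start in Lfng, and occurred in 6.38% of all windows. These matches describe letters in a window and do not show binding.

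Most of the 10 genes lay lower at 11.5 than at 13.5 dpc, and the size of the difference was uneven across the pathway. Dll1 and the targets Heyl, Hes5 and Hey1 were far below 0, whereas the receptors and Hes1 were only slightly below it and Jag1, Jag2 and Lfng had different signs on different arrays. Of the 10 genes, 7 were below 0 on all 3 arrays, against 18.5% of the 19015 rows measured; 0 were above 0 on all arrays, against 16.8%. At least 2-fold below 0 on every array were 3 genes (Dll1, Heyl and Hes5), against 0.436% of rows. Since these ratios chose the genes, nothing is read from those shares. The median of the 10 mean ratios was -0.32, and that of all rows was -0.0084.

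**Figure D1:**
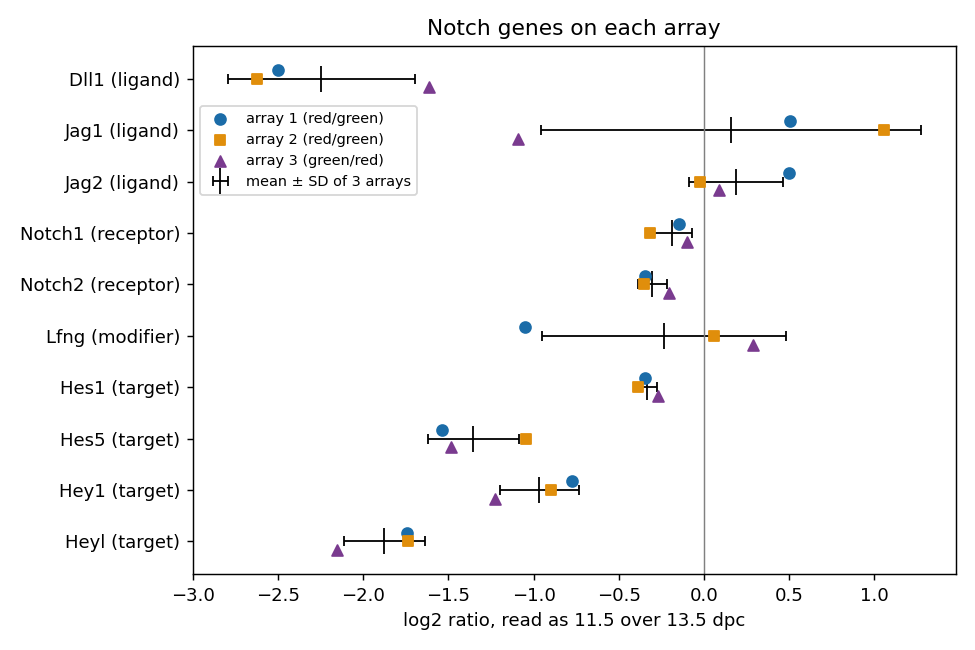
Log2 ratio of each Notch gene on each array (points; dye order in the legend), with the mean and SD of 3 arrays (black). Dll1, Hes5, Hey1 and Heyl lie left of the other genes on every array, except that Lfng (-1.05) lies below Hey1 (-0.78) on array 1.

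Among the ligands, Dll1 had log2 ratios of -2.50, -2.63 and -1.61 on arrays 1, 2 and 3, a mean of -2.25 ± 0.55 (SD, n = 3 arrays) or 4.74-fold lower at 11.5 dpc. All 3 arrays put it more than 3-fold lower, with array 3 the least. Dll1 encodes a Delta-type ligand that is made in the forming renal vesicle. By mean, 12 of the 19015 rows lay below it.

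Jag1, a ligand of the Jagged type, had 0.50, 1.06 and -1.09, a mean of 0.16 ± 1.12. Arrays 1 and 2 put it higher and array 3, with the other dye order, put it lower by about as much as array 2 put it higher. The mean turned on which array was left out, being -0.014 without array 1, -0.29 without array 2 and 0.78 without array 3. Jag2, the other Jagged ligand, had 0.50, -0.022 and 0.088, a mean of 0.19 ± 0.27. It was above 0 on arrays 1 and 3 and close to 0 on array 2. Dll1 was lower than Jag2 within each array, with a mean difference of -2.43 ± 0.67 (Dll1 minus Jag2, log2) and the smallest, -1.70, on array 3. Dll1 was also lower than Jag1 within each array, with a mean difference of -2.40 ± 1.66, but that difference was -3.69 on array 2 and -0.52 on array 3.

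The receptors were near 0. Notch1 had log2 ratios of -0.15, -0.31 and -0.095, a mean of -0.19 ± 0.11. Notch2, the receptor with the larger known part in nephron patterning, had -0.35, -0.35 and -0.21, a mean of -0.30 ± 0.08. Both were below 0 on every array, by less than 1.3-fold each time. Notch2 was the lower of these receptors on each array, and the difference between them (Notch1 minus Notch2) was 0.20, 0.038 and 0.11. The median of array 3 itself was -0.091, which is almost the value of Notch1 there.

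Lfng, the fringe enzyme gene, had log2 ratios of -1.05, 0.059 and 0.29, a mean of -0.23 ± 0.72. Array 1 put it about 2-fold lower at 11.5 dpc and the other 2 arrays slightly higher. Arrays 1 and 2, which share a dye order, differed in sign for Lfng. Without array 1 its mean was 0.18.

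All 4 target genes were below 0 on every array. Heyl had log2 ratios of -1.74, -1.74 and -2.15, a mean of -1.88 ± 0.24 (3.67-fold lower at 11.5 dpc). Hes5 had -1.54, -1.05 and -1.48, a mean of -1.35 ± 0.27 (2.56-fold lower). Hey1 had -0.78, -0.90 and -1.22, a mean of -0.97 ± 0.23 (1.95-fold lower). Heyl was the lowest target on each array, and the ranges of Heyl and Hes5 over the arrays did not overlap. The ranges of Hes5 and Hey1 did overlap, although Hes5 was the lower of them on each array (Hes5 minus Hey1 was -0.76, -0.15 and -0.26).

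Hes1, a Hes repressor that many signals besides Notch can switch on, had log2 ratios of -0.35, -0.39 and -0.27, a mean of -0.34 ± 0.06. It was slightly lower at 11.5 dpc on every array and had the smallest SD of the 10 genes. Hes5 was lower than Hes1 within every array, with differences of -1.19, -0.66 and -1.21 (mean -1.02 ± 0.31, Hes5 minus Hes1). Heyl was lower than Hey1 by nearly the same amount on each array, with differences of -0.97, -0.84 and -0.93 (mean -0.91 ± 0.07, Heyl minus Hey1). By mean, Hes5 and Hes1, and likewise Heyl and Hey1, thus differed more than Hes1 differed from the receptors, whose means were -0.19 and -0.30. These pairs come from the chosen genes and do not speak for the rest of the Hes and Hey families. In order of the mean with array 3 as deposited, Dll1 was followed by Heyl, Hes5, Hey1, Hes1, Notch2, Lfng, Notch1, Jag1 and Jag2. Dll1 and Heyl were not separated beyond their spread, since Heyl was the lower of them on array 3 (Dll1 minus Heyl was -0.76, -0.89 and 0.54), and the ranges of Hes1, Notch2 and Notch1 overlapped from each to the next, as did those of Lfng and Jag1 with both receptors. The range of Jag2 overlapped those of Lfng and Jag1 and lay just above that of Notch1.

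The 3 arrays differed in overall spread, with standard deviations of 0.56, 0.79 and 0.97 over all gene features, so the place of each gene among the rows of its own array was also taken. Over all rows the arrays agreed little. Pearson correlations were 0.27 between arrays 1 and 2, 0.12 between arrays 1 and 3 and -0.12 between arrays 2 and 3. Spearman correlations, in the same order, were 0.36, 0.13 and 0.0010. This limits what a mean of 3 arrays can show. Of the rows on array 1, 0.053% lay below Dll1, against 1.42% on array 2 and 1.78% on array 3. For Heyl these shares were 0.47, 3.19 and 0.56%, and for Hes5 they were 0.87, 6.15 and 2.29%. Hey1 had 7.27, 7.29 and 4.05% of rows below it. These 4 genes thus stood near the low end of every array. Hes1 had 23.2, 17.8 and 34.8% of rows below it, and Notch2 had 23.2, 19.4 and 40.0%. Notch1, with 37.0, 21.2 and 49.5%, stood at the middle of array 3. Jag1 ran from 5.49% on array 3 to 96.1% on array 2, and Lfng from 3.33% on array 1 to 79.2% on array 3. Jag2 had 84.9, 42.0 and 65.4% of rows below it.

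**Figure D2:**
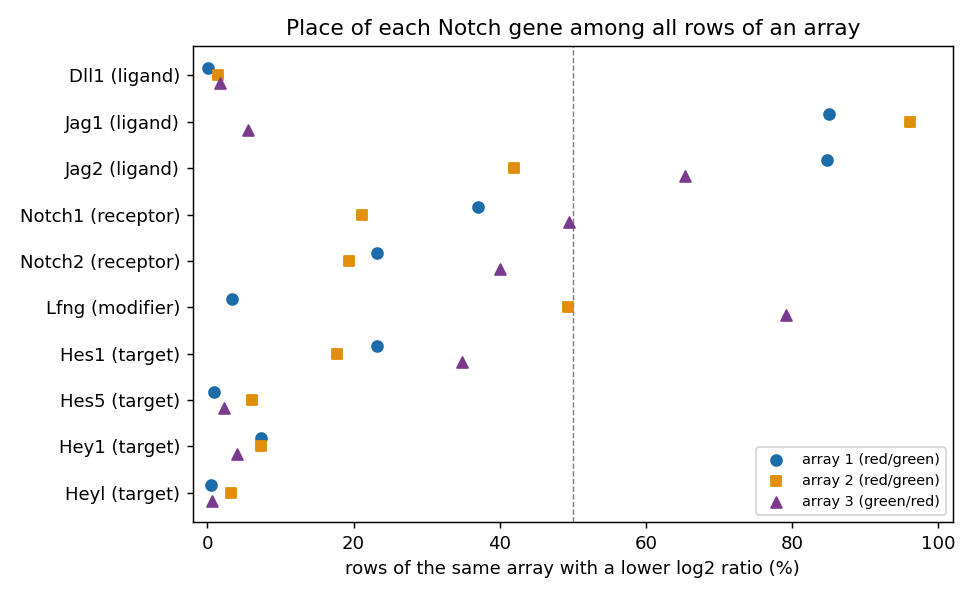
Percent of all rows of an array with a lower log2 ratio than each Notch gene, per array; the dashed line marks 50%. Dll1, Hes5, Hey1 and Heyl stay between 0.053 and 7.29% on all arrays, while Jag1 and Lfng span most of the scale.

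Array 3, the array with the other dye order, is used here as deposited. If its sign were turned, Dll1 would have a mean of -1.17, Heyl one of -0.44, Hes5 one of -0.37 and Hey1 one of -0.15. Their signs on array 3 would then oppose those on arrays 1 and 2. Jag1 would be above 0 on all arrays, with a mean of 0.89. Lfng would have a mean of -0.43, Notch2 one of -0.16, Hes1 one of -0.16, Notch1 one of -0.12 and Jag2 one of 0.13. The order of the means would then change, with Lfng below Hes5 and with Hey1 among the receptors and Hes1, while Dll1 would still be the lowest. As deposited, 7 of the 10 genes had 1 sign on all arrays, and 1 would with array 3 turned; over all rows these shares were 35.3 and 29.2%. No one orientation of array 3 gave both Jag1 and the Hes and Hey genes the same sign on every array. Without array 3, which leaves arrays of a single dye order, age and dye cannot be told apart, and the means of Dll1, Heyl, Hes5 and Hey1 were -2.56, -1.74, -1.29 and -0.84.

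**Figure D3:**
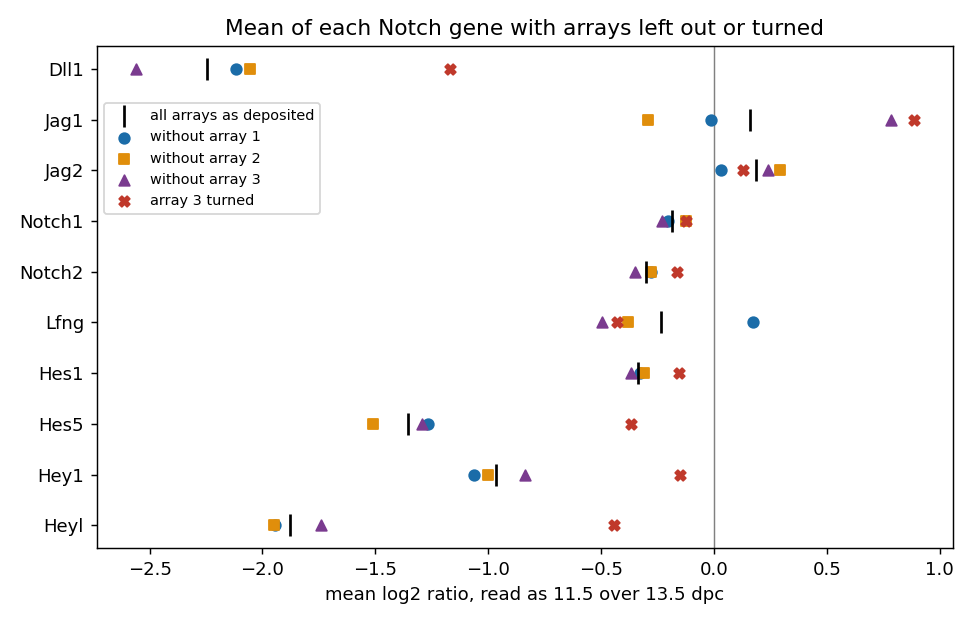
Mean log2 ratio of each Notch gene with all arrays as deposited (black bar), with 1 array left out, and with the sign of array 3 turned (red cross). Dll1, Heyl, Hes5, Hey1, Hes1, Notch1 and Notch2 stay below 0 throughout, while the mean of Jag1 runs from -0.29 without array 2 to 0.89 with array 3 turned.

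The rest of the pathway was taken from 86 further genes listed by role, of which 68 had a value on all arrays; 16 had no feature with that 1 symbol, and 2 lacked a value on at least 1 array. With limma (moderated test of the mean ratio against 0), 0 of these 68 genes passed a Benjamini-Hochberg adjusted p of 0.05, against 0% of all rows. At an unadjusted limma p under 0.05 there were 7 lower at 11.5 dpc and 1 higher, against 5.07 and 4.17% of all rows. The ordinary one-sample test also passed 0 after adjustment, with 8 at an unadjusted p under 0.05 (9.62% of all rows). Below 0 on all arrays were 19 of the 68 genes and above 0 on all arrays 5, against 18.5 and 16.8% of all rows, which is the background for each role below as well; their median of means was -0.13. At least 2-fold below 0 on every array were 2 genes, Dlk1 and Mfap5, against 0.436% of all rows, and at least 2-fold above 0 were 0, against 0.247%.

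The further receptors and ligands lay lowest among the roles, with 6 of 10 below 0 on all arrays, none above, and a median of -0.36. Dlk1, a Delta-like protein that lacks the usual receptor-binding domain, had -1.60, -1.34 and -1.70, a mean of -1.55 ± 0.19. Dll4, a Delta ligand of endothelium, had -0.98, -0.81 and -0.79, a mean of -0.86 ± 0.10. Both were evenly lower at 11.5 dpc across the arrays. The matrix protein gene Mfap5, whose product can bind Jagged ligands, had a mean of -1.28 ± 0.16, and Cntn6, an adhesion protein described as a Notch ligand, one of -0.56 ± 0.31. Notch3, the receptor of vascular smooth muscle and pericytes, had -0.15, -0.19 and -0.26 (mean -0.20 ± 0.05), close to Notch1 and Notch2. The endothelial receptor gene Notch4 (-0.26 ± 0.46) and the ligand gene Dll3 (-0.21 ± 0.23) had different signs on different arrays.

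Among genes for sugar transfer and receptor cleavage, 4 of 11 were below 0 on all arrays and 1 above, with a median of -0.047. The fringe gene Mfng had -0.92, -1.07 and -0.37 (mean -0.79 ± 0.37) and the fringe gene Rfng -0.41, -0.29 and -0.30 (mean -0.34 ± 0.07). Both were below 0 on each array, unlike Lfng. Adam10, a protease that cuts the receptor after ligand binding, had -0.090 ± 0.10 with both signs. Of 15 genes for endocytosis and breakdown of ligand and receptor, 4 were below 0 on all arrays and 3 above, with a median of -0.027. Dtx3, of the Deltex family, had -0.94, -0.92 and -0.85 (mean -0.90 ± 0.05). Sel1l, whose worm relative restrains Notch, had a mean of 0.57 ± 0.37, and Neurl2 one of 1.04 ± 1.14 that rested on 2.33 on array 3.

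In the nuclear group, 2 of 17 genes were below 0 on all arrays and 1 above, with a median of -0.15. Rbpj itself had -0.16, 0.057 and -0.50 (mean -0.20 ± 0.28), and the corepressor gene Cir1, whose product binds RBPJ, had 0.79, 0.27 and 0.73 (mean 0.60 ± 0.29). The gene of the DNA-binding partner thus had no single sign. Among 15 further Hes, Hey and other target genes, 3 were below 0 on all arrays and 0 above, with a median of -0.15. The cyclin gene Ccnd1 had -0.53, -0.60 and -0.68 (mean -0.60 ± 0.07). Hey2 (-0.29 ± 0.51) and Hes6 (0.28 ± 0.45) had both signs. Nrarp, a Notch target whose product dampens the pathway, had -1.46, -1.36 and 1.65, a mean of -0.39 ± 1.76. Its arrays split by dye order, as those of Jag1 did but with the signs the other way round. With array 3 turned its mean would be -1.49. The means of genes with 1 sign as deposited would then shrink in size or change sign. Among them, Dlk1 would have -0.41, Mfap5 -0.54, Dll4 -0.33, Cir1 0.11 and Neurl2 -0.52. The limma adjusted p of the 10 pathway genes named for 1 sign and a mean of at least 0.5 in size lay between 0.326 and 0.578.

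**Figure D4:**
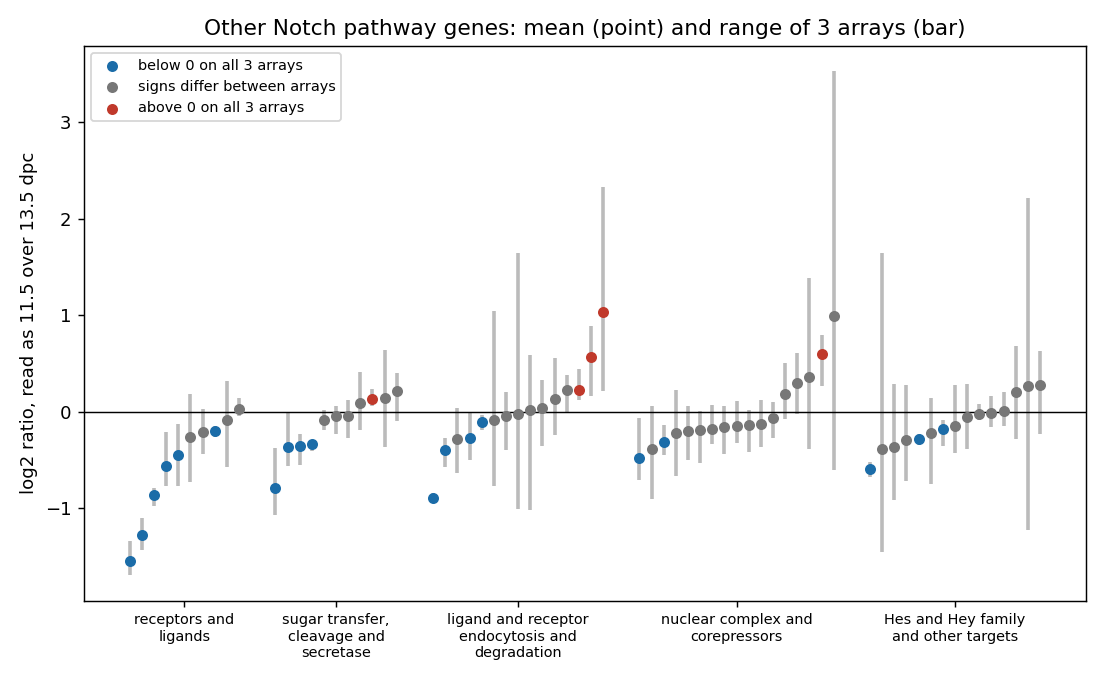
Mean log2 ratio (points) and range over 3 arrays (grey bars) of 68 further Notch pathway genes, grouped by role and ordered by mean within a role. The further receptors and ligands include the lowest genes, Dlk1 at -1.55 and Mfap5 at -1.28, and the widest bar belongs to Crebbp in the nuclear group.

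Because the arrays carried RNA of whole kidney rudiments, fewer cells of a type and less RNA per cell cannot be told apart, and ratios give no level from which a tissue could be checked. Markers of cells known to use Notch genes were therefore read beside them. Of 17 measured markers of the renal vesicle and S-shaped body, 12 were below 0 on all arrays and 0 above (18.5 and 16.8% of all rows, the background for each list here), with medians of -0.53, -0.36 and -0.48 on arrays 1, 2 and 3; the lowest was Sim2 (-2.71 ± 0.72) and the highest Papss2 (0.49 ± 0.81). Of 14 endothelial markers, 10 were below 0 on all arrays and 1 above, with medians of -0.40, -0.43 and -0.44, from Cldn5 (-0.89 ± 0.45) to Erg (0.17 ± 0.14). For 11 mural and smooth muscle markers, a list that holds Notch3, 5 were below and 3 above, with medians of -0.17, 0.091 and -0.26, from Kcnj8 (-2.59 ± 0.04) to Pdgfrb (1.80 ± 2.36). The mean of Pdgfrb rested on 4.53 on array 3, beside 0.39 and 0.49 on arrays 1 and 2. The renal vesicle list also holds Ccnd1, and the ureteric bud list below holds Gata3. Like Notch3, both were counted among the further pathway genes above. Neuron and neural crest markers had 5 of 9 below and 1 above, with medians of -0.72, -0.30 and -0.38, from Uchl1 (-1.10 ± 0.24) to Stmn2 (0.84 ± 0.29). The part of any of these cells in the ratios of the 10 Notch genes was not tested.

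The remaining marker lists are given by their median of means, which was -0.46 for the renal vesicle, -0.39 for the endothelial, -0.20 for the mural and -0.24 for the neuron list. Nephron progenitor markers had 5 of 9 below 0 on all arrays and 1 above, with a median of means of -0.24, from Cited1 (-0.85 ± 0.37) to Osr1 (0.42 ± 0.14). Podocyte markers had 3 of 8 below and 0 above, with a median of -0.30, from Col4a3 (-1.57 ± 0.11) to Col4a4 (0.084 ± 0.15). Ureteric bud markers had 4 of 10 below and 2 above, with a median of -0.14, from Cdh16 (-1.62 ± 0.12) to Ret (0.30 ± 0.20). Of the 78 markers in the 7 lists, 0 passed limma's adjusted threshold; at an unadjusted limma p under 0.05 there were 22 lower and 2 higher (5.07 and 4.17% of all rows), and the ordinary one-sample test passed 0 after adjustment and 26 before it (9.62% of all rows).

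**Figure D5:**
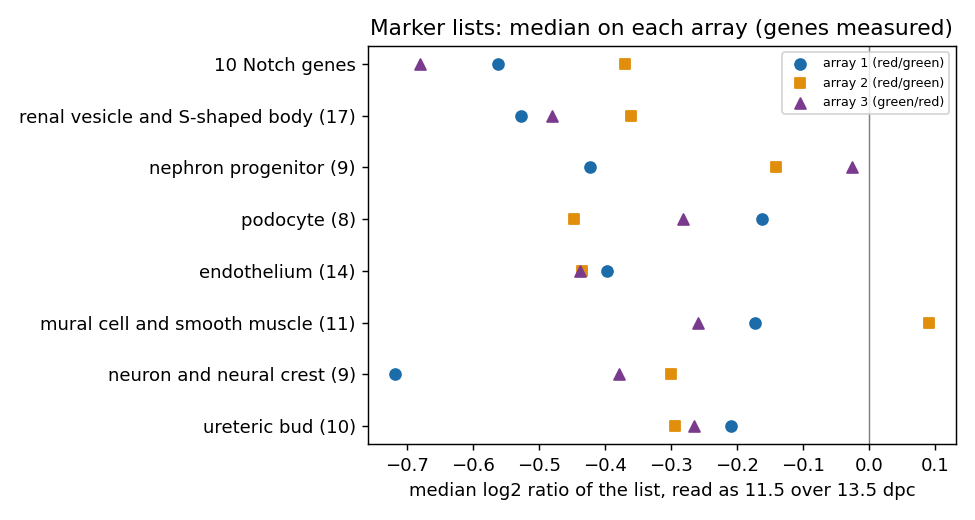
Median log2 ratio on each array for the 10 Notch genes and for 7 lists of cell type markers (number of genes measured in brackets). The Notch genes have medians of -0.56, -0.37 and -0.68. Every marker list also lies below 0 on every array, except that the mural list lies at 0.091 on array 2. The arrays themselves had medians of 0.010, 0.065 and -0.091 over all gene features. On array 3 the nephron progenitor list, at -0.026, thus lies above the median of the array.

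The genes with ratios most like those of Dll1, Hes5 and Heyl were found by Euclidean distance over the 3 log2 ratios, a measure that rests on 3 numbers per gene. Nearest to Dll1 were the skeletal actin gene Acta1 (distance 0.25 log2 units), the peptidase gene Dpp4 (0.72) and Pcp4 (0.82). Nearest to Hes5 were the sodium channel subunit gene Scnn1b (0.14), the neurotensin gene Nts (0.17) and Rnu3b4 (0.21). Nearest to Heyl were the annexin gene Anxa6 (0.31), the guanylate cyclase subunit gene Gucy1b1 (0.34) and the transcription factor gene Klf4 (0.35). None of these 9 genes stands in a Notch or marker list used here. Acta1 followed Dll1 closely on each array, with -2.59, -2.86 and -1.63.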

How the data were processed

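The authors deposited normalised log2 ratios of 3 two-colour arrays, with no spot intensities, so background and saturation were not assessed. Images were read with ImaGene 5.5, per the labels, which carry 2 accounts of the normalisation (print-tip loess with a step between arrays, or Lowess over 20% of the data with the control channel floored at 10). The base was found from the deposited values between -3 and 2. Raised on base 2, they fell on steps of 0.001 (to within 0.02 of a step) in 100% of cases, against 4.42% for base e. Of 22702 features, 883 controls and blanks were left out; the 20386 gene features with values on all arrays, averaged by symbol, gave 19015 rows. Symbols (platform annotation) were checked by Entrez identifier.

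Mean ratios were tested with limma 3.58.1 in R 4.3.3 over all rows (two-sided, Benjamini-Hochberg), after a run on simulated data. The labels do not tell whether separate RNA went onto each array. The p-values thus reflect array-to-array spread, possibly technical, and 3 arrays limit the precision. The members, lists and rules were chosen with earlier results of these data known. Named pathway genes had 1 sign and a mean of at least 0.5 in size or were core genes fixed by name, where they had a row; of each marker list the lowest and highest gene are named. Crebbp was named after its values were seen. Promoters are from RefSeq, build GRCm38.p6.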

Additional observations from a re-analysis of the deposited data

How the results depend on the processing

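Each mean was recomputed under 13 alternatives: 1 array left out, array 3 turned, a dye term, median centring, scaling, quantile normalisation, a running median along the features in table order or (added after the data were seen) in library order, single features, features on at least 2 arrays, and ratios limited to 3 log2 units. Of 130 means, 116 moved by no more than 1 SD without changing sign, 10 moved further and 4 changed sign. Those that changed sign were Jag1 with a dye term (-0.15), without array 1 (-0.014) and without array 2 (-0.29), and Lfng without array 1 (0.18). Many of the 116 could not have moved further, so that count does not measure robustness. Single features, features on at least 2 arrays and the limit of 3 log2 units left every member mean unchanged. Leaving out 1 of 3 arrays cannot move a mean by 1 SD. With an SD of 1.12, the shift of Jag1 from 0.16 to 0.89 with array 3 turned also stayed within it. Leaving out 1 array, Jag1 ran from -0.29 to 0.78 and Lfng from -0.50 to 0.18. Dll1 ran from -2.56 to -2.06, Heyl from -2.13 to -1.74, Hes5 from -1.60 to -1.26 and Hey1 from -1.06 to -0.84 outside the turned array. Of the 7 genes below 0 on all arrays, 3 were so at 2-fold and 6 after either running median (Notch1 being the exception). With array 3 turned 0 were so, and 7 were so whichever 1 array was left out. Both of these last counts follow from the signs alone and could not have come out otherwise. Above 0 were 1 with array 3 turned (Jag1), 1 after the running median in either order (Jag2), and 1 whichever 1 array was left out. Of the 68 further pathway genes, 11 were below and 11 above 0 with array 3 turned, against 1957 and 3601 of all 19015 rows. Without 1 array from 23 to 32 of the pathway genes were below and from 7 to 16 above, where fewer arrays had to share a sign. The same counts over all rows without 1 array were not taken, so nothing is read from these ranges. Limma passed 0 of the further pathway genes and 0 rows under each alternative (4 to 14 genes and 736 to 2669 rows at an unadjusted p under 0.05), with a smallest adjusted p of 0.133 over all rows. With 3 arrays or fewer in each fit, 0 passing does not show that no row differed between the ages. The causes were not tested. The log2 ratio of an array already pairs both ages, so no replicate block was added.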
